A study of Mus musculus with 91 samples.

Results

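The 6 genes described here encode subunits of the NMDA receptor, a glutamate-gated cation channel: Grin1 (ENSMUSG00000026959), Grin2a (ENSMUSG00000059003), Grin2b (ENSMUSG00000030209), Grin2c (ENSMUSG00000020734), Grin2d (ENSMUSG00000002771) and Grin3a (ENSMUSG00000039579). They were selected by Ensembl identifier, and 6 of the 6 identifiers were among the 14355 genes of the deposited count table. The mRNA bound to ribosomes in the nucleus accumbens of mice had been sequenced in 91 libraries, 45 from D1-expressing and 46 from D2-expressing neurons. The D1 libraries came from male and female Drd1-Cre mice and the D2 libraries from male and female A2a-Cre mice, all crossed to RiboTag mice, in which Cre switches on the tagged ribosomal protein HA-Rpl22. A cell is therefore counted as D1 or D2 by the activity of the Cre driver. Mice were over 10 weeks old, were kept on a light-dark cycle with 12 h of light, and were untreated as far as the labels say. Tissue of 2 mice was pooled in each sample, and the tagged ribosomes were pulled down with an anti-HA antibody. Tissue was collected at 6 Zeitgeber times (ZT, hours from lights on): 2, 6, 10, 14, 18 and 22. Cell type, sex and ZT formed 24 groups of 3 or 4 libraries, with 23 female and 22 male D1 libraries and 23 of each sex for D2. The submitters state that 6 samples were excluded.

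NMDA receptors open when glutamate and a co-agonist are bound and the membrane is depolarised, and they let calcium into the cell. Each receptor needs GluN1, the product of Grin1, which binds glycine or D-serine, joined by GluN2 subunits, which bind glutamate, or by GluN3 subunits, which bind glycine. In D1 and D2 neurons, the projection neurons of the nucleus accumbens, these receptors respond to glutamate released by cortical, hippocampal, thalamic and amygdala inputs and are needed for many forms of synaptic plasticity. The design asked how gene expression in these neurons differed between cell types, over the day and between the sexes.

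Levels are given as CPM, counts scaled to a common library total after TMM adjustment, and they are not corrected for transcript length, so no order is drawn between subunits. Library totals ranged from 6872165 to 24665262 counts, with a median of 14047068. At these depths a library held at least 2671 counts of Grin1, at least 240 of Grin3a and between 9 and 179 of Grin2d. The library titles carry a letter from A to E, whose meaning the labels do not give. Libraries of the same letter resembled each other in D2 neurons and less closely in D1 neurons, so values are also given by letter. In 3 D1 male libraries many genes were at 0: 789 at ZT 10 letter B, 722 at ZT 22 letter B and 205 at ZT 18 letter D, against a median of 0. Identifiers in the deposited table are not paired with gene names, so markers of D1 neurons, D2 neurons, glia and interneurons and other genes of the NMDA receptor pathway were not scored, and the cell type labels were not checked against markers.

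In the RefSeq annotation of GRCm38.p6, Grin1 lies at chr2:25291177-25319187 and shares its span with Lrrc26 and the lncRNA Grin1os. Grin2a lies at chr16:9567901-9996083 and overlaps the pseudogene Gm19143. Grin2b lies at chr6:135713221-136173615 and overlaps the lncRNAs Gm14329, Gm14330 and Gm26653. Grin2c lies at chr11:115249169-115267297 and Grin2d at chr7:45831883-45871194, with no other annotated gene in their spans. Grin3a lies at chr4:49661611-49846023, and the gene Ppp3r2, which encodes a calcineurin regulatory subunit, lies inside it. Only whole gene spans were compared, not exons. The sources used here do not say whether counting used strand, and whether reads of overlapping genes were counted together was not tested.

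RefSeq promoter windows were matched by symbol for 3 of the 6 genes: Grin1, Grin2c and Grin2d. The 250 bases before each start are shown because the study sampled the day, and the clock proteins CLOCK and BMAL1 bind E-boxes while REV-ERB and ROR receptors bind AGGTCA. Both strands were searched for the E-box CACGTG, for AGGTCA, for the D-box TTATGTAA and for the cAMP element TGACGTCA. Capitals mark every match; no matches overlapped. All 3 windows are on the minus strand and are printed 5′ to 3′ in the direction of transcription, from chr2:25319188-25319437 for Grin1, chr11:115267244-115267493 for Grin2c and chr7:45866682-45866931 for Grin2d. The Grin2d window lies inside the annotated span of its gene, and the Grin2c window overlaps that of its gene in part. Distances for these windows are therefore from the start used for the window, not from the annotated gene end.
Grin1: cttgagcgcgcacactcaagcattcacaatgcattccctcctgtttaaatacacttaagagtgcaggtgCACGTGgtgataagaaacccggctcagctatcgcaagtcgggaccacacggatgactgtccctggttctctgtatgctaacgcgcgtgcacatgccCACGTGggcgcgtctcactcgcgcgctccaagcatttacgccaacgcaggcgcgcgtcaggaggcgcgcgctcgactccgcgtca
Grin2c: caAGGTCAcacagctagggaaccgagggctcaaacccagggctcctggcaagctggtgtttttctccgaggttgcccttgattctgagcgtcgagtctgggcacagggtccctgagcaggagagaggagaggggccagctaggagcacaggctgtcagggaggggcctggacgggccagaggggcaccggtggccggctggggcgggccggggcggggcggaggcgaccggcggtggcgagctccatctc
Grin2d: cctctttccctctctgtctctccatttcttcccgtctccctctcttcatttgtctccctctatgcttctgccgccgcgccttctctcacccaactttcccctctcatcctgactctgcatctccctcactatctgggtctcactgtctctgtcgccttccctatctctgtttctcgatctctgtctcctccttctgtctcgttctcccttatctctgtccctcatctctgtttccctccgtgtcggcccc
The Grin1 window held 2 E-boxes, starting 181 and 85 bases before the gene start, whereas 6.02% of 32851 such windows held at least 1. The Grin2c window held 1 AGGTCA, 248 bases before the start used for the window, a match present in 14% of all windows. The Grin2d window held none of the 4 motifs. The D-box, found in 0.819% of all windows, and the cAMP element, found in 1.55%, were in none of the 3. A match is a string of letters and was not measured as a binding site.

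The clearest difference among the NMDA receptor genes was between cell types. Grin3a was 1.59-fold higher in D1 than in D2 neurons, and Grin2d was 1.20-fold higher with a less stable call. Grin1, Grin2a, Grin2b and Grin2c did not pass the test in the fit over all libraries, which left out the letter. With edgeR's quasi-likelihood test and Benjamini-Hochberg adjustment over all genes, 2 of the 6 genes were called, both higher in D1. Over all 14355 genes, 2760 were called (19.2%), and 1349 were called higher in D1 (9.4%). The median absolute log2 difference was 0.10 over the 6 genes and 0.092 over all genes. Since the pull-down is a bulk measurement, fewer cells with a transcript and less transcript per cell cannot be told apart.

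**Figure D1:**
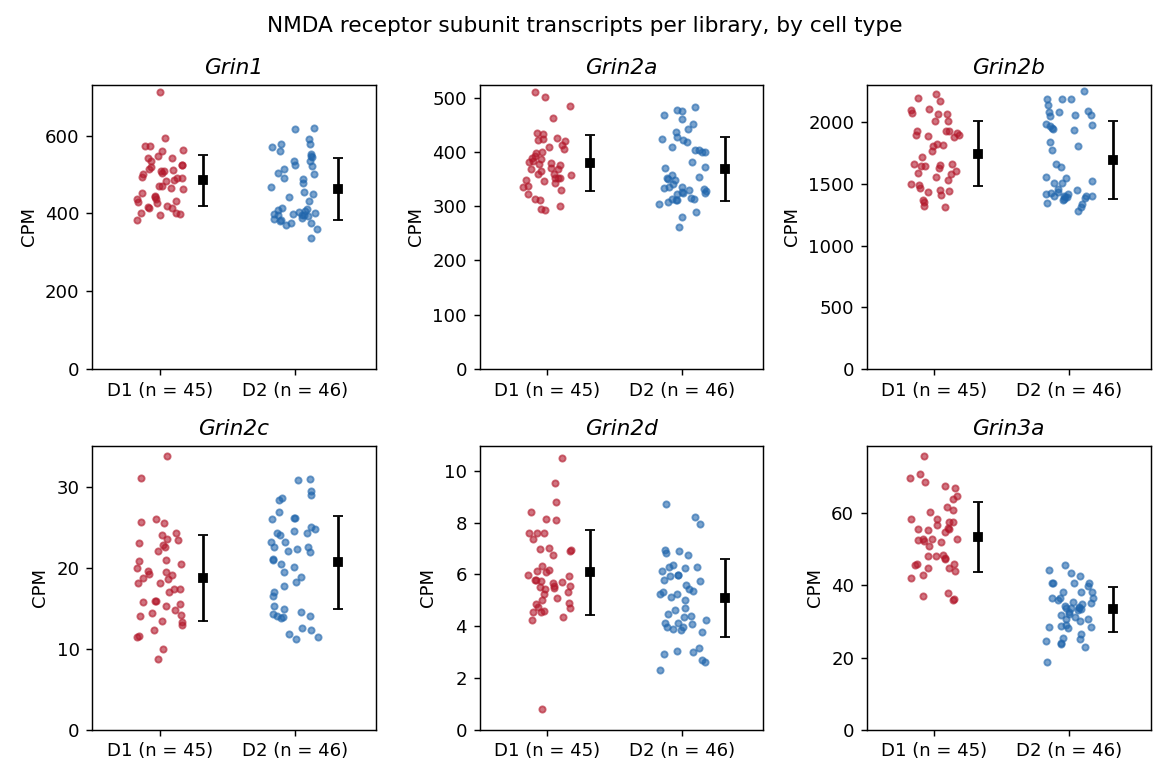
Each panel plots the CPM of a subunit gene (vertical axis, from 0) in every D1 (red) and D2 (blue) library, with the mean and SD as a black square and bar beside the points. Grin3a averages 53.5 CPM in D1 and 33.3 CPM in D2, while the clouds of the other subunits largely overlap.

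Grin3a encodes GluN3A, a glycine-binding subunit that lowers the calcium permeability and the magnesium block of the receptors that contain it. Its level in D1 libraries was 36.0 CPM at the lowest, 53.0 at the median and 75.9 at the highest (mean 53.5 ± 9.69, SD, n = 45). In D2 libraries it was 18.7 CPM at the lowest, 33.7 at the median and 45.8 at the highest (mean 33.3 ± 6.21, SD, n = 46). The ranges overlapped in part: 35 of the 45 D1 libraries lay above the highest D2 library, and 30 of the 46 D2 libraries lay below the lowest D1 library. The log2 difference, D1 minus D2, was 0.67 ± 0.055 (SE), with a 95% interval from 0.56 to 0.78 and an edgeR adjusted p of 3.21e-18. Its size exceeded that of 97.3% of genes. Among D1 and D2 libraries with the same letter, sex and ZT, D1 was higher in 42 of 42 pairs. The libraries of such a pair came from different mouse lines and are known to share only these labels. The mean was higher in D1 in 12 of the 12 combinations of sex and ZT.

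The Grin3a difference was present in the libraries of each letter taken alone, but its size varied. It was 1.05 on the log2 scale in letter A, 0.63 in B, 0.47 in C and 0.53 in D, with edgeR adjusted p between 7.43e-05 and 5.26e-10. Over all 14355 genes, 6924 were called in letter A alone, 6925 in B, 8019 in C and 7784 in D. Each call by letter given below stands beside these counts. The D1 male libraries with 789 and 722 genes at 0 are both of letter B and enter its values. In letters A and B the D1 and D2 libraries did not overlap in Grin3a, and the share of all genes that did so was not counted. In letter C, 11 of 12 D1 libraries lay above the highest D2 library, and in letter D, 10 of 11. The level varied with the letter in both cell types. D2 means of Grin3a were 28.7 CPM in A (SD 5.72, n = 12), 28.7 in B (SD 3.42, n = 10), 38.9 in C (SD 4.95, n = 12) and 36.2 in D (SD 2.42, n = 12). D1 means were 59.3, 48.4, 53.6 and 51.8 CPM in the same letters. Without the 3 D1 male libraries that stand apart the difference was 0.71, with an adjusted p of 4.93e-20.

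Grin2d encodes GluN2D, a subunit that gives slowly closing channels with a weak magnesium block and is known in the striatum for its expression in interneurons. Its level in D1 libraries was 0.787 CPM at the lowest, 5.79 at the median and 10.5 at the highest (mean 6.09 ± 1.64, SD, n = 45). In D2 libraries it was 2.31 CPM at the lowest, 5.18 at the median and 8.73 at the highest (mean 5.08 ± 1.52, SD, n = 46). The groups overlapped widely: 3 D1 libraries lay above the highest D2 library. The lowest value came from the D1 male library at ZT 22 of letter B, which held 9 Grin2d counts and is among the libraries that stand apart. The log2 difference was 0.27 ± 0.097 (SE), with a 95% interval from 0.075 to 0.46 and an edgeR adjusted p of 0.0394. D1 was higher in 31 of 42 pairs with the same letter, sex and ZT, and in 12 of 12 combinations of sex and ZT. The call was lost without the libraries of letter A (adjusted p 0.216, log2 difference 0.16) and without those of letter D (0.127, 0.29). It also missed the threshold with time as 6 levels (adjusted p 0.0597), with library totals unscaled (0.0819) and with least squares on log2(CPM + 1) (0.052). Without the 3 libraries that stand apart the difference was 0.32, with an adjusted p of 0.00228.

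Taken by letter, the Grin2d difference passed the test in letter A alone. There it was 0.61 (edgeR adjusted p 0.000323), with 9 of 12 D1 libraries above the highest of 12 D2 libraries. It was 0.043 in letter C (adjusted p 0.769) and 0.18 in letter D (0.177). In letter B the fitted difference was -0.27 (adjusted p 0.38), although the D1 mean of 5.84 CPM was above the D2 mean of 4.76, and 7 of 9 D1 libraries lay above the D2 median and 4 above the highest D2 library. Without the D1 library of 9 counts, a choice made after seeing the data, the edgeR difference in letter B was 0.32 (adjusted p 0.461). That fit had 18 libraries and 6 residual degrees of freedom. Its 3 D1 male libraries carried a mean, a cosine and a sine, which left no spread among them. They include the ZT 10 library with 789 genes at 0. The remaining 8 D1 libraries averaged 6.47 CPM (SD 1.74) against 4.76 over the 10 D2 libraries. In D2 neurons Grin2d averaged 3.73 CPM in letter A (SD 0.809, n = 12) and 6.17 in letter C (SD 1.52, n = 12). The D2 libraries of letter A had a mean total of 19727033 counts and those of letter C 11336342; the part of depth in this difference was not tested. The fit with total counts as a covariate gave a difference of 0.28 and an adjusted p of 0.0128.

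**Figure D2:**
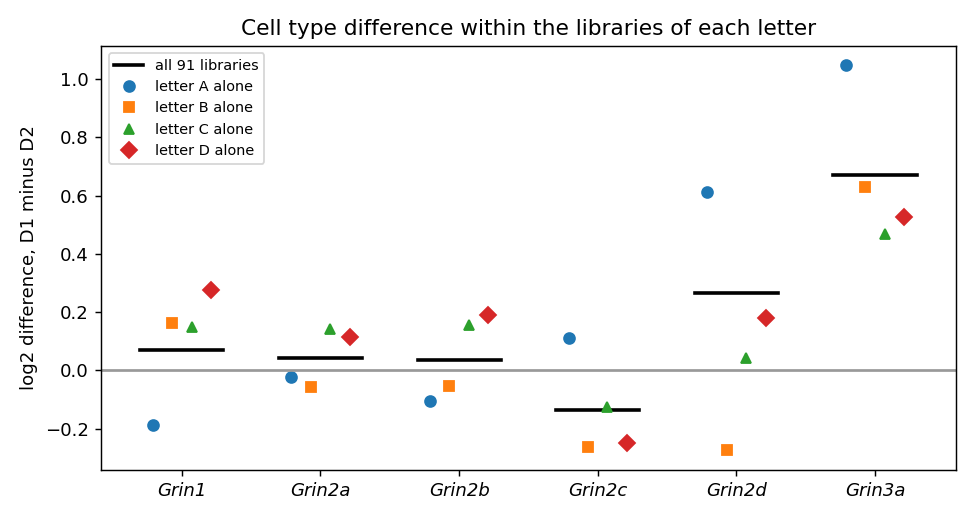
For each subunit (horizontal axis) the log2 difference, D1 minus D2 (vertical axis), is shown from all 91 libraries (black line) and from the libraries of letters A, B, C and D alone (coloured markers). The Grin3a markers all lie above 0, from 0.47 to 1.05, whereas the markers of each other subunit lie on both sides of 0.

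Grin1 encodes the obligatory subunit, without which no functional NMDA receptor reaches the membrane. Its level was 382.1 CPM at the lowest, 487.0 at the median and 711.5 at the highest in D1 libraries (mean 485 ± 65.7, SD, n = 45). It was 337.2, 446.1 and 620.7 CPM in D2 libraries (mean 462 ± 79.1, SD, n = 46). The ranges overlapped widely, and the highest D1 value belonged to the ZT 22 male library of letter B with 722 genes at 0. The log2 difference was 0.069 ± 0.047 (SE), with a 95% interval from -0.025 to 0.16 and an edgeR adjusted p of 0.305. This value averaged letters that went opposite ways. In letter A the difference was -0.19 (adjusted p 0.00355), and D1 lay above the D2 median in 1 of 12 libraries. In letters B, C and D it was 0.16 (0.0199), 0.15 (0.0156) and 0.28 (0.000157). Without letter A the difference was 0.17 and passed the test (adjusted p 0.00844), as did 6902 of all 14355 genes. The Grin1 difference also passed with the letter as a replicate block (0.0864 on the log2 scale, adjusted p 0.0284), which called 5465 of all genes.

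Grin2a encodes GluN2A, the subunit of fast-closing receptors that rises during postnatal development. It averaged 380 ± 51.1 CPM (SD, n = 45; lowest 292.5, median 375.2, highest 511.1) in D1 and 368 ± 59.0 CPM (SD, n = 46; lowest 262.1, median 351.9, highest 482.0) in D2 neurons. The log2 difference was 0.043 ± 0.046 (SE; 95% interval -0.048 to 0.13), with an edgeR adjusted p of 0.517. Grin2b encodes GluN2B, which gives slower channels and carries the binding site for the kinase CaMKII. It averaged 1748 ± 263 CPM (SD, n = 45; lowest 1315, median 1723, highest 2228) in D1 and 1695 ± 317 CPM (SD, n = 46; lowest 1279, median 1550, highest 2256) in D2 neurons. Its log2 difference was 0.036 ± 0.053 (SE; 95% interval -0.068 to 0.14), with an edgeR adjusted p of 0.641. By letter the differences were small and of both signs: for Grin2b -0.10 in A, and 0.16 (adjusted p 0.00822) in C and 0.19 (adjusted p 0.00258) in D. For Grin2a letter C passed the test, at 0.14 with an adjusted p of 0.0121.

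Grin2c encodes GluN2C, a subunit of receptors with weak magnesium block that is best known from cerebellar granule cells and astrocytes. It averaged 18.7 ± 5.34 CPM (SD, n = 45; lowest 8.68, median 18.6, highest 33.8) in D1 and 20.7 ± 5.74 CPM (SD, n = 46; lowest 11.2, median 21.6, highest 31.0) in D2 neurons. It was the only 1 of the 6 genes with a lower fitted level in D1. The log2 difference was -0.14 ± 0.087 (SE; 95% interval -0.31 to 0.038), with an edgeR adjusted p of 0.275. D1 was higher in 15 of 42 pairs with the same letter, sex and ZT. In letters B and D alone the difference was -0.26 (adjusted p 0.046) and -0.25 (0.0187), in C -0.13 (0.263), and in A 0.11 (0.379). The fit with a replicate block within each cell type called 6199 of all genes. Grin2c passed there, at -0.13 with an adjusted p of 0.0419. With a block shared by the cell types the adjusted p was 0.0531.

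**Figure D3:**
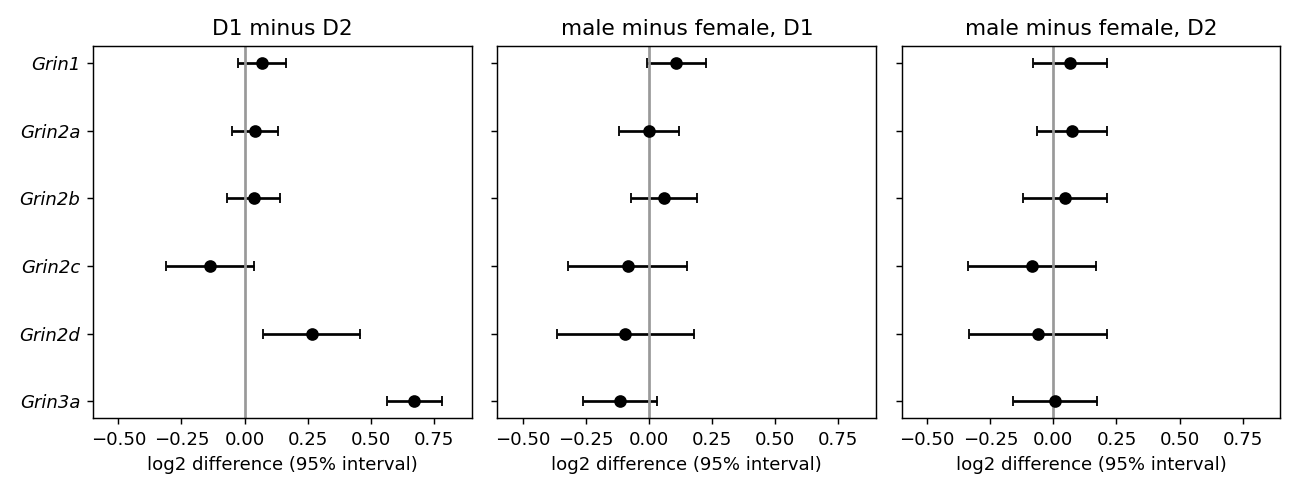
Points give the log2 difference in mean level for each subunit (vertical axis) and bars its 95% interval, for D1 minus D2 (left) and for male minus female in D1 (middle) and D2 neurons (right). The intervals of Grin3a, from 0.56 to 0.78, and Grin2d, from 0.075 to 0.46, lie above 0 on the left, and every interval in the other panels includes 0.

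Subunit levels differed between letters, and in D2 neurons Grin1, Grin2a and Grin2b went the opposite way to the other subunits. In D2 neurons Grin2b averaged 2059 CPM in letter A (SD 105, n = 12), 1921 in B (SD 201, n = 10), 1383 in C (SD 47.4, n = 12) and 1455 in D (SD 73.8, n = 12). The D2 libraries of A and B lay between 1642 and 2256 CPM and those of C and D between 1279 and 1554, without overlap. How many of all genes separated in this way was not counted. Same-letter D2 libraries resembled each other over genes at large, with a median correlation of 0.732. Grin1 in D2 neurons averaged 551, 515, 397 and 395 CPM in the same letters, and Grin2a 436, 394, 319 and 328. Grin2c ran the opposite way in D2 neurons, with 14.3, 17.7, 25.0 and 25.2 CPM. Grin3a and Grin2d were also higher in D2 libraries of letters C and D than in those of A and B. D1 libraries showed the same direction for Grin2b (1927, 1966, 1538 and 1629 CPM) and Grin2c (15.6, 14.0, 22.9 and 21.1 CPM). They did not for Grin1, at 487, 558, 439 and 480 CPM, where A lay close to D, nor for Grin3a, which was highest in A and lowest in B. Grin2d in D1 neurons averaged 5.72, 5.84, 6.28 and 6.48 CPM. Mean library totals in D2 neurons were 19727033, 16241681, 11336342 and 10904585 counts; the part of depth in these levels was not tested. These splits by letter are a description, without a test.

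**Figure D4:**
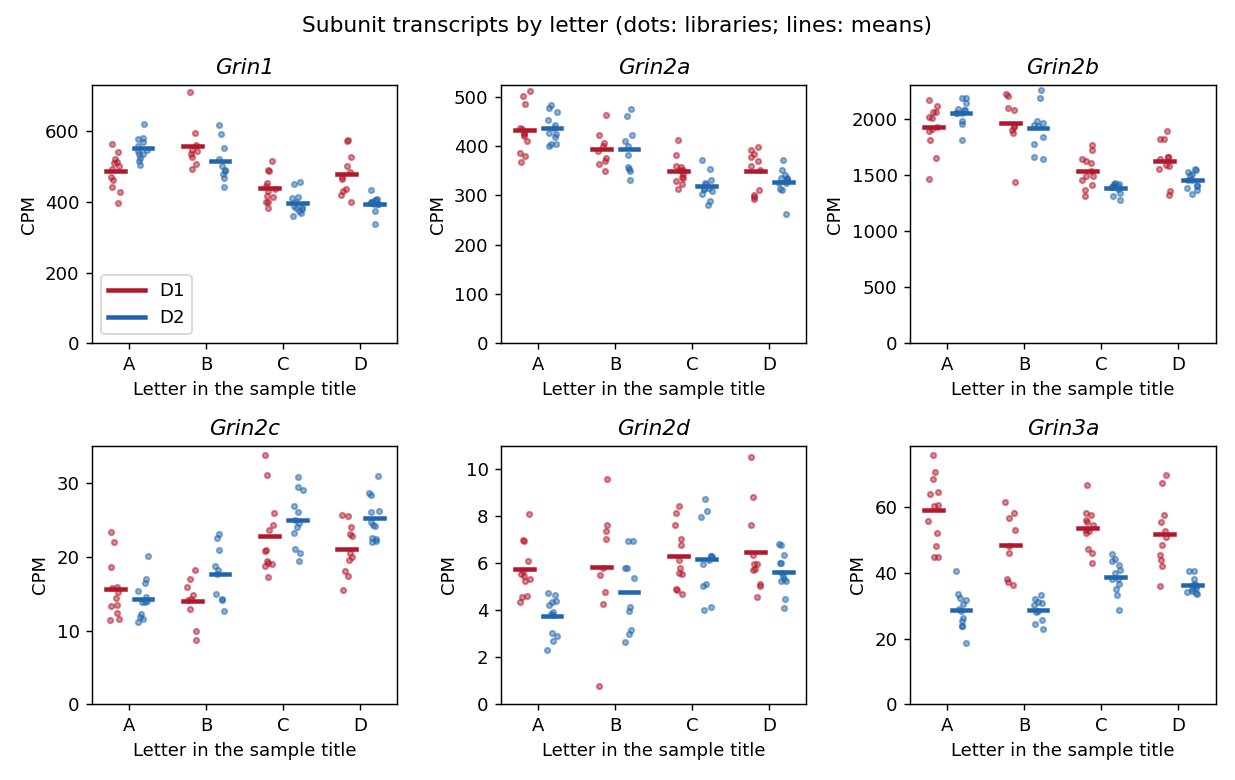
Dots are libraries and lines are means of CPM (vertical axis, from 0) by the letter in the sample title (horizontal axis) for D1 (red) and D2 (blue); the single D1 library of letter E is not drawn. In D2 neurons Grin1, Grin2a and Grin2b are higher in A and B than in C and D, and Grin2c, Grin2d and Grin3a are lower.

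Levels of the subunits were related within a library, more closely in D2 than in D1 neurons before letter means were removed. Across the 46 D2 libraries, log2 levels of Grin1 and Grin2b correlated at r = 0.927, of Grin1 and Grin2a at 0.824, and of Grin2b and Grin2c at -0.896. After the mean of each letter was removed the same values were 0.566, 0.306 and -0.635. Across the 45 D1 libraries Grin1 and Grin2b gave 0.703 (0.597 over 44 libraries within letters) and Grin2b and Grin2c -0.808 (-0.624). Grin3a followed Grin2b differently in the cell types, with r of 0.335 in D1 and -0.779 in D2, or 0.472 and -0.454 within letters; this contrast was not tested. These points share the library total and letter, and no p-value is attached. Pairs of other genes were not scored in this way, so a relation particular to the subunits was not tested.

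Ratios of CPM within a library remove the library total, although they still carry transcript length. The Grin2a level was 21.9% ± 1.95 (SD, n = 45) of that of Grin2b in D1 and 21.9% ± 2.06 (SD, n = 46) in D2 libraries, with ranges of 17.5% to 25.1% and 17.4% to 26.0%. By letter the D1 and D2 means of this ratio were 22.5% and 21.3% in A, 20.2% and 20.6% in B, 22.8% and 23.0% in C, and 21.4% and 22.5% in D, so the gaps had both signs; the difference was not tested. The Grin3a level was 11.2% ± 2.32 of that of Grin1 in D1 (n = 45) and 7.59% ± 2.47 in D2 libraries (SD, n = 46). For this ratio 14 D1 libraries lay above the highest D2 library and 9 D2 libraries below the lowest D1 library. For Grin3a over Grin1 the D1 and D2 means by letter were 12.2% and 5.26% in A, 8.80% and 5.69% in B, 12.3% and 9.89% in C, and 10.8% and 9.22% in D. The D1 mean was the higher in each of these 4 letters, with gaps that differed in size.

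None of the 6 genes was called rhythmic in either cell type. Rhythm was tested as a cosine with a period of 24 h, fitted for each sex, and the amplitude, in log2 units, measures how far the peak of the curve averaged over the sexes rises above its mean. In D1 neurons 0 of 6 passed edgeR's test, with adjusted p from 0.438 to 0.976, while 71 of 14355 genes did (0.495%). In D2 neurons 0 of 6 passed, with adjusted p from 0.92 to 1, while 415 genes did (2.89%). The lowest unadjusted p among the 6 was 0.0767 in D1 and 0.353 in D2. The letters paired the D2 libraries, and with the letter as a replicate block the D2 count rose to 3162 genes and 0 of the 6. In that fit the edgeR adjusted p of the 6 ran from 0.148 for Grin1 to 0.679 for Grin2d. The median amplitude of the 6 genes was 0.084 in D1 and 0.059 in D2, against 0.093 and 0.073 over all genes.

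The intervals, taken from the fits without the letter, limit how large a rhythm could have gone unseen. For Grin1 the amplitude was 0.013 in D1 and 0.050 in D2, with upper 95% bounds of 0.12 and 0.18. The upper bounds correspond to a peak 1.18-fold above the trough in D1 and 1.28-fold in D2. For Grin2a the amplitude was 0.067 in D1 and 0.043 in D2, with upper bounds of 0.18 and 0.17. For Grin2d it was 0.078 and 0.084, with bounds of 0.32 and 0.33.

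**Figure D5:**
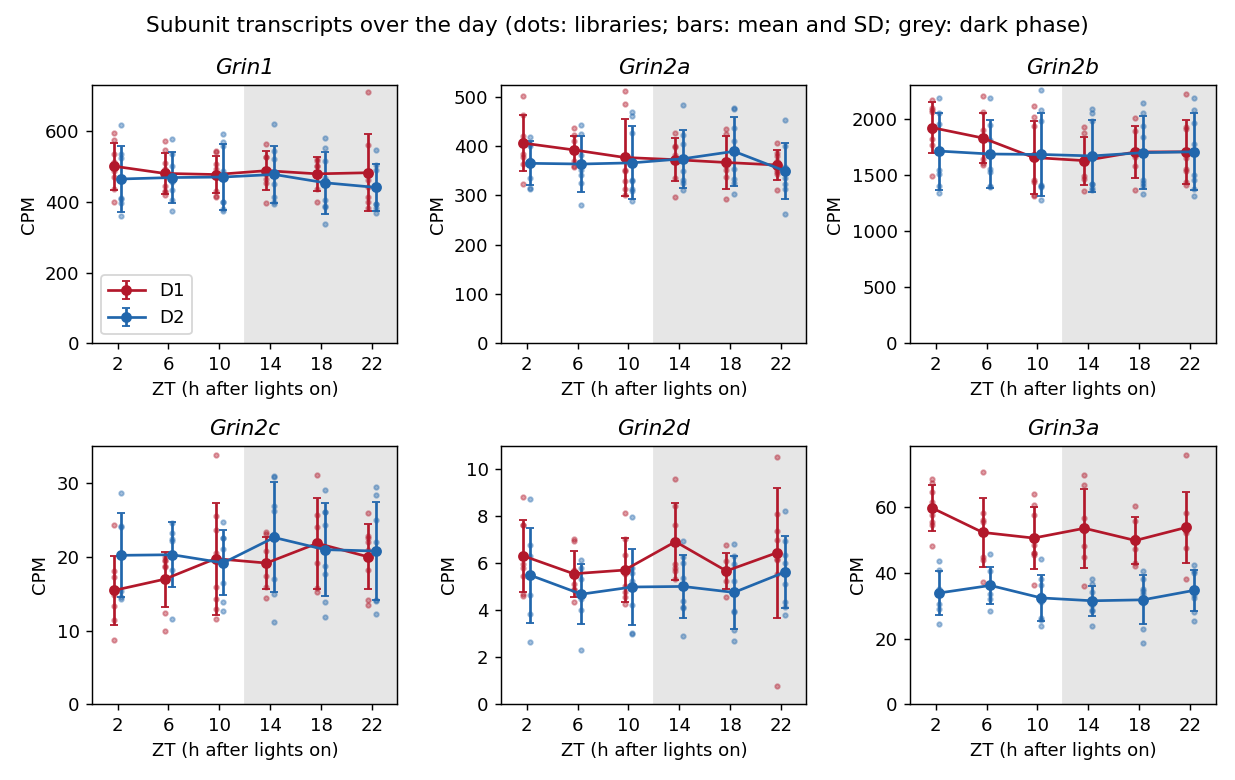
CPM (vertical axis, from 0) is plotted against ZT in hours after lights on (horizontal axis) for D1 (red) and D2 (blue); small dots are libraries, larger points and bars the mean and SD, and grey the dark phase. The Grin3a means lie higher in D1 than in D2 at each of the 6 times, and none of the time courses passed the rhythm test.

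Grin2c had the largest fitted amplitude in D1 neurons, 0.19 ± 0.085 (SE), with an upper 95% bound of 0.41 and an edgeR adjusted p of 0.462. Its D1 mean was 15.4 CPM at ZT 2, 17.0 at ZT 6, 19.8 at ZT 10, 19.2 at ZT 14, 21.8 at ZT 18 and 20.0 at ZT 22. The lowest, median and highest libraries were 8.68, 15.2 and 24.3 CPM at ZT 2 (n = 8) and 15.3, 21.6 and 31.1 CPM at ZT 18 (n = 6). The libraries of these times overlapped. In D2 neurons its means ran from 19.2 CPM at ZT 10 to 22.6 at ZT 14, with an amplitude of 0.069 and an upper bound of 0.30.

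Grin2b in D1 neurons had a mean of 1925 CPM at ZT 2 (SD 226, n = 8; lowest 1494, median 1981, highest 2173) and of 1630 CPM at ZT 14 (SD 214, n = 7; lowest 1357, median 1628, highest 1934). Its amplitude was 0.11 ± 0.046 (SE), with an upper bound of 0.22 and an edgeR adjusted p of 0.438. In D2 neurons the 6 means of Grin2b lay between 1672 and 1715 CPM, and the amplitude was 0.015 with an upper bound of 0.16.

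Grin3a in D1 neurons averaged 59.8 CPM at ZT 2 (SD 7.07, n = 8; lowest 48.2, median 59.7, highest 68.6) and 49.9 CPM at ZT 18 (SD 7.24, n = 6; lowest 42.1, median 49.1, highest 60.4). The other times lay between, from 50.6 to 53.9 CPM. In D2 neurons the means ran from 31.5 CPM at ZT 14 to 36.2 at ZT 6. Amplitudes were 0.090 ± 0.051 (SE) in D1 and 0.086 ± 0.059 in D2, with edgeR adjusted p of 0.567 and 0.92. The difference of the rhythms had a size of 0.034, with an upper 95% bound of 0.23 and an adjusted p of 0.955.

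For the difference in rhythm between D1 and D2 neurons, 0 of the 6 genes passed edgeR's test, and the lowest unadjusted p was 0.263, for Grin2a. Over all genes 2 passed (0.0139%). The sizes of these differences ranged from 0.034 for Grin3a to 0.13 for Grin2c, with upper bounds from 0.22 to 0.44.

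No subunit passed the test for a difference in mean level between males and females. In D1 neurons 6 of 14355 genes were called (0.0418%) and in D2 neurons 30 (0.209%). Grin1 came nearest in D1, at 467 ± 60.7 CPM in females (SD, n = 23; lowest 382.1, median 443.3, highest 593.5) and 503 ± 67.2 CPM in males (SD, n = 22; lowest 400.7, median 492.0, highest 711.5). The log2 difference, male minus female, was 0.11 ± 0.058 (SE; 95% interval -0.0087 to 0.23), with an unadjusted p of 0.0686 and an edgeR adjusted p of 0.358. The sexes overlapped over most of their range. For Grin3a in D1 neurons the means were 55.4 ± 8.11 CPM in females (SD, n = 23; lowest 43.9, median 55.5, highest 70.8) and 51.6 ± 11.0 CPM in males (SD, n = 22; lowest 36.0, median 52.4, highest 75.9). Its log2 difference was -0.11 ± 0.073 (SE), with an edgeR adjusted p of 0.443. For D2 neurons the Grin3a means were 33.2 ± 7.12 CPM among females and 33.4 ± 5.32 among males (SD, n = 23 each). Across the 6 genes the log2 difference ran from -0.11 to 0.11 in D1 and from -0.085 to 0.073 in D2, with adjusted p of at least 0.358 and 0.927.

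The cell type difference itself was compared between the sexes, and 0 of the 6 genes passed, with unadjusted p of at least 0.267. With edgeR 0 of the 14355 genes were called (0%), while 903 had an unadjusted p under 0.05. DESeq2 called 16 of the 1275 genes to which it gave an adjusted p, and limma voom with quality weights called 0 of the 14355. The Grin3a difference was smaller in males by 0.12 on the log2 scale, with a 95% interval of the change from -0.34 to 0.096. The difference in rhythm between the sexes was called for 0 of the 6 genes in both cell types. Over all genes edgeR called 0 in D1 (0%; 226 with an unadjusted p under 0.05) and 0 in D2 (0%; 384). DESeq2 called 0 genes in D1 and 2 in D2, and voom called 2885 and 3. Among the 2885 were Grin2c (adjusted p 0.0409) and Grin3a (adjusted p 0.0343), which edgeR placed at an adjusted p of 1. The edgeR size for Grin3a in D1 was 0.24 ± 0.10 (SE), with an unadjusted p of 0.064.

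Genes with the most similar pattern were sought among 9808 others with a mean of at least 10 CPM, by Pearson's r over the 12 means of cell type and ZT of log2(CPM + 0.5). The closest to Grin3a was ENSMUSG00000052981, with r = 0.992. Its mean was 52.1 ± 12.7 CPM over the D1 libraries (SD, n = 45) and 27.6 ± 8.76 over the D2 libraries (SD, n = 46), so the 12 points fall into a D1 and a D2 cluster. The closest to Grin1 was ENSMUSG00000013787, with r = 0.975 and means of 133 ± 14.5 CPM for D1 and 126 ± 16.8 CPM for D2 libraries. The table does not pair these identifiers with names.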

How the data were processed

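Raw counts per gene were deposited by the authors for 91 libraries, not normalised. Per the submitters' processing notes, FastQC 0.11.7, HISAT2 and HTSeq 0.10.0 were used, with GRCm38 and GRCh38 named without a role; the table's name mentions a log CPM filter, with no threshold given in the sources used here. Depth was 6872165 to 24665262 counts per library.

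Counts were fitted in R 4.3.3 with edgeR 4.0.16 (TMM, trended dispersion, robust quasi-likelihood test) over all 14355 genes, in 3 fits: D1, D2 and all libraries. Each sex of each cell type had a mean, a cosine and a sine of 24 h. Benjamini-Hochberg adjusted p under 0.05 was called. The named genes are the 6 subunits, plus the 2 most similar genes. The members and lists were chosen with earlier results of these data known. The code was tested on simulated counts. The labels do not say whether libraries of a group came from separate animals, so p-values measure the spread between libraries. None of the 129 pairs of libraries within a group were copies (lowest mean chi-square per gene 4.24).

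Letters paired the D2 libraries: deviations from group means correlated above 0.1 in 243 of 243 same-letter pairs (median 0.732). In D1 they did so in 153 of 223 (median 0.222), a weaker pairing, and D1 was taken as unpaired. The 3 fits had no letter term in either cell type. With the letter as a block, D1 rhythm calls over all genes went from 71 to 160. D1 sex calls went from 6 to 1035. Alternatives used DESeq2 1.42.0, limma 3.58.1 (voom), other scalings and filters, depth, the letter as a block, letters left out or alone, time as 6 levels, and leaving out the 3 libraries that stand apart. The block together with leaving out those 3 libraries, and letter B without 1 library, were chosen after seeing the data. Gene names of the other identifiers were not used here: 0 of the 49997 RefSeq entries carry an Ensembl identifier.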

Additional observations from a re-analysis of the deposited data

Results flagged for a closer look

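Groups of 4 to 10 libraries were examined for each subunit, by cell type, sex and ZT and by cell type and ZT. Of these 186 groups, which share libraries, 2 held a library far from the rest of its group, each in a group of 4; chance alone marks about 5% of groups. Grin2d was at 6.92 CPM in the D2 male library of ZT 14, letter B, where the nearest of the other libraries was at 4.40 CPM. Grin3a was at 47.7 CPM in the D1 female library of ZT 22, letter E, the lowest of its group, where the nearest was at 52.2 CPM. That library is the only 1 of letter E.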

How the results depend on the processing

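Grin3a was called higher in D1 in each of the 21 alternatives, with log2 differences from 0.47 to 1.05. Grin2d was called in 13 of its 21, Grin1 in 9, Grin2c in 5, Grin2b in 4 and Grin2a in 2. The number of subunits called different between cell types, 2 of 6, became 6 with voom and 5 with the replicate block without the 3 libraries that stand apart. Over all 14355 genes these settings called 8248 and 6052. The number of subunits became 4 with a replicate block within each cell type (6199 of all genes), 4 in letter C alone (8019) and 4 in letter D alone (7784). It became 1 with least squares, 1 with unscaled totals and 1 with time as 6 levels. Leaving out each letter gave 1 to 2, and without letter A these were Grin1 and Grin3a, with Grin2d lost. Letter A alone gave 3, among them Grin1 lower in D1, and letter B alone gave 3. Signs turned in single letters. Grin1 went to -0.19 in letter A alone, a called value, and Grin2d to -0.27 in letter B alone, or to 0.32 there without the D1 library of 9 counts, a setting added later and left out of the counts above. Uncalled values of opposite sign were Grin2a at -0.022 in A and -0.058 in B, Grin2b at -0.10 in A and -0.053 in B, and Grin2c at 0.11 in A. The cause of these turned signs was not tested. For the rhythm difference between the sexes in D1, voom called 2 subunits. In the other comparisons 0 subunits were called under every alternative run. With DESeq2 a gene without an adjusted p counted as not called. It gave one to 3779 genes for the sex difference in D1. For the cell type difference compared between the sexes it did so for 1275.

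Counts over all genes moved more. For the cell type difference 2760 became 1764 without letter D, 6902 without letter A, 5465 with the replicate block (3258 higher in D1, against 1349 of 2760), 4396 with depth and 8248 with voom. D1 rhythms went from 71 to between 12 (without letter C) and 717 (voom), and D2 rhythms from 415 to between 48 (without letter C) and 3162 (replicate block). The rhythm difference between cell types went from 2 to between 0 and 2266 (voom). Sex differences went from 6 to between 2 (without letter C) and 1035 in D1, and from 30 to between 5 (without letter C) and 1334 in D2, the highest both with the replicate block. The block shared by the cell types changed the call of Grin1 between them and of no other subunit, and the block within each cell type changed the calls of Grin1 and Grin2c. Same-letter libraries resembled each other less in D1 than in D2, with median correlations of 0.222 and 0.732. Depth limits Grin2d, with at most 179 counts in a library.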
